A study of Mus musculus with 8 samples.

Results

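The neutrophil granule genes described here are 10 mouse genes whose products fill the granules or cytosol of neutrophils: Mpo, Elane, Prtn3, Ctsg, Ngp, Camp, Ltf, S100a8, S100a9 and Retnlg. They were listed by name and were read by 11 probes, found through the RefSeq transcript each probe carries, out of 18316 named genes and 41056 probes on the array. Ltf had 2 probes and the other members 1 each. The arrays held total RNA of whole mouse liver, with a single array per combination of 2 genotypes and 4 times (8 arrays), so no group had a replicate. Mice of the genotype Mxcre+ (Mxcre-positive, Survivin-deleted per the series design) were set against Mxcre- mice (Mxcre-negative, wild type for Survivin) at 0, 24, 36 and 48 h after partial hepatectomy (PHx), the surgical removal of part of the liver. All groups shared the mixed strain 129/SV/B6, a treatment with poly(IC), and an earlier irradiation with bone marrow transplantation. Ages are not given, the sex is given as male or female without saying which mouse was which, and the labels state neither the genotype of the marrow donors nor whether animals were pooled. The times are those of the sample titles, whereas the treatment protocol in the labels puts the analysis of the liver 1 week after PHx, and the labels do not settle this difference.

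Neutrophils make their granule proteins in sequence while they mature in the bone marrow. Promyelocytes transcribe the azurophil granule genes, later precursors transcribe the specific granule genes, and the mature cells that circulate keep little of either transcript but much of S100a8 and S100a9. Mxcre is a Cre recombinase under the interferon-inducible Mx1 promoter, which poly(IC) switches on in hepatocytes and also in blood-forming cells, and after irradiation and a transplant the granulocytes of a mouse come largely from the donor marrow. In whole tissue, fewer neutrophils or precursors and less RNA per cell cannot be told apart.

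Because these genes are transcribed in stages, their promoters are shown first for the groups whose levels are given next. The sequences are RefSeq's, from the 250 bases before to the 50 bases after each transcription start (GRCm38.p6), and all 10 members had an entry. A pair of motifs was searched for on both strands after the sequences had been seen. They were AGGAAGT, a core recognised by factors of the ETS family such as PU.1, and GCAAT, a C/EBP core. AGGAAGT occurred in 5 of the 10 member promoters, against 9.35% of all 32851 promoters in the table. These were the 4 azurophil genes and S100a8. GCAAT occurred in 8 of 10, against 26.4% of all. As the sequences had been seen first, these shares are a description and no test of an excess. A match is a description of the letters and shows neither binding nor a cause, and the motifs do not overlap each other in these windows. The 5 windows with AGGAAGT follow, 5′ to 3′ along the gene's strand, with the motif in capitals (ACTTCCT where it lies on the other strand).
Mpo, chr11:87793534-87793597, plus strand: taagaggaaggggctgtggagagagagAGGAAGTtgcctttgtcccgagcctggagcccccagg
Elane, chr10:79886198-79886264, plus strand: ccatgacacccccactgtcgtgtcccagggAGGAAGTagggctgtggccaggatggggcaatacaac
Prtn3, chr10:79879543-79879609, plus strand: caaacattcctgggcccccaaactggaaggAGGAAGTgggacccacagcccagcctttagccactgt
Ctsg, chr14:56102744-56102810, minus strand: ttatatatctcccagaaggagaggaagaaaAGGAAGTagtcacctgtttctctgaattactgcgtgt
S100a8, chr3:90668869-90668935, plus strand: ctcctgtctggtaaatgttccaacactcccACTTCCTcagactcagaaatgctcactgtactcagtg

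The match began 223 bases before the start site in Mpo, 84 in Elane, 94 in Prtn3, 206 in Ctsg and 172 in S100a8. The 3 specific granule genes lacked AGGAAGT in this span, as did S100a9 and Retnlg. GCAAT was not particular to the specific granule genes. Mpo, Elane (in small letters in its window above), S100a8, S100a9 and Retnlg held it too. In the specific granule genes GCAAT is in capitals below (ATTGC on the other strand). It lay 139 bases before the start of Ngp, 137 before that of Camp, and 100 and 71 before that of Ltf.
Ngp, chr9:110419639-110419703, plus strand: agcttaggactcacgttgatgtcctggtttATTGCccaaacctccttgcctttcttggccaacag
Camp, chr9:109849559-109849623, minus strand: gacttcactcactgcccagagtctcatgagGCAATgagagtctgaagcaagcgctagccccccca
Ltf, chr9:111019162-111019255, plus strand: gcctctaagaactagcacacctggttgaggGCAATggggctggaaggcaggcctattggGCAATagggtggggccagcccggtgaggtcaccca

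Between 60.2% and 66.0% of the 43379 spots of an array were well above background. The arrays of 0 and 24 h lay on slide 1 and those of 36 and 48 h on slide 2, so early against late and slide cannot be told apart, while each genotype pair lay on a single slide. Birc5, the Survivin gene, was lower in Mxcre-positive liver throughout, with differences of -2.55, -2.95, -3.11 and -6.23 (log2). The 12 measured hepatocyte markers were above background on all 8 arrays. The 4 Y-linked genes were not well above background in the 0 h pair and in late (36 and 48 h) Mxcre-positive liver, and at least 3 of them were above it on the other 4 arrays. The late genotype pairs were thus unlike in Y-linked signal and the early pairs much less so, and the part of this in the results below was not tested beyond a covariate given with the fits.

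Levels are given as log2 intensity after scaling each array to its 75th percentile. The error after a level is the scanner software's own estimate for the spot, 0.14 to 0.28 (log2) for members above background and 0.36 to 1.20 for those that were not. It covers the reading of 1 array and no spread between animals.

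**Figure D1:**
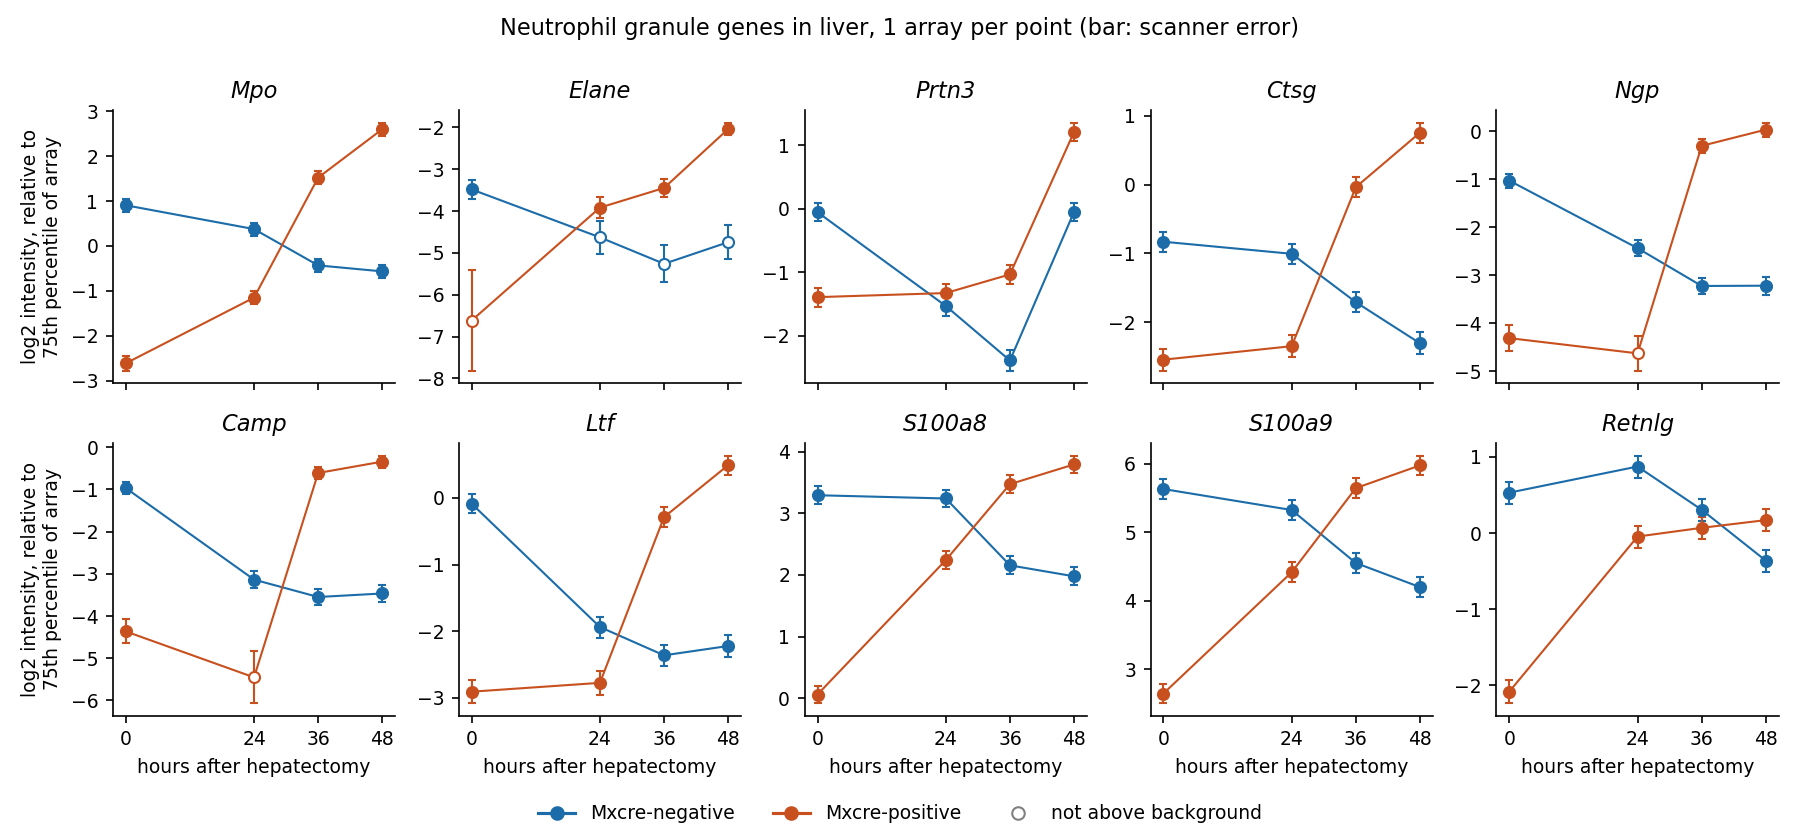
Level of each granule gene on each of the 8 arrays, in hours after hepatectomy (x axis) and scaled log2 intensity (y axis, its own range for each gene), with 1 array per point, scanner error as bars, and open circles for arrays not above background. In 9 of the 10 genes the Mxcre-positive array of 48 h was the highest of the 8, and in 7 the Mxcre-positive array of 0 h was the lowest.

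Across the 8 arrays most granule genes followed a shared course. In Mxcre-negative liver the levels were highest at 0 h and lower at the later times, and in Mxcre-positive liver they were lowest at 0 or 24 h and highest at 48 h. At 0 h all 10 members were lower in the Mxcre-positive liver, with a median difference of -3.06 (log2). At 48 h all 10 were higher there, with a median difference of 2.71. The Mxcre-positive array of 48 h was highest for 9 of 10 members, the Mxcre-positive array of 36 h was second for 7, and the Mxcre-positive array of 0 h was lowest for 7.

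Among the azurophil genes, Mpo encodes myeloperoxidase, which makes hypochlorous acid from hydrogen peroxide and chloride. In Mxcre-negative liver the level began at 0.91, then stood at 0.37 (24 h), -0.43 (36 h) and -0.57 (48 h). The Mxcre-positive levels were -2.62, -1.15, 1.52 and 2.60 in the same order of times. The 2 genotypes thus ran in opposite directions, and of the 7 neighbouring steps in the order of the arrays only that between 36 and 48 h in Mxcre-negative liver was within the scanner error. At 0 h Mpo was 11.5-fold lower in Mxcre-positive than in Mxcre-negative liver, and at 24 h still 2.88-fold lower. It was then 3.88-fold higher at 36 h, a gap that reached 8.99-fold at 48 h. Within Mxcre-positive liver the level at 48 h was 37.2-fold that at 0 h, the widest range of any member above background throughout.

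Ctsg encodes cathepsin G, a serine protease of the same granules. Its levels were -0.83, -1.01, -1.71 and -2.31 at 0, 24, 36 and 48 h in Mxcre-negative liver. In Mxcre-positive liver they were -2.55, -2.35, -0.04 and 0.76. Ctsg ranked the 8 arrays in the same order as Mpo. In Mxcre-positive liver it was 3.28-fold and 2.54-fold lower at the early times, and 3.19-fold and 8.36-fold higher at the late times.

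Elane encodes neutrophil elastase and lies next to Prtn3 on chromosome 10. It was above background on 4 of the 8 arrays, with -3.48 on the Mxcre-negative array of 0 h and, in Mxcre-positive liver, -3.92 at 24 h, -3.45 at 36 h and -2.04 at 48 h. It was not well above background on the Mxcre-positive array of 0 h (-6.62) or the Mxcre-negative arrays of 24 h (-4.63), 36 h (-5.26) and 48 h (-4.74). Each genotype pair therefore had 1 dim array and gave a bound, set against the lowest signal above background on that array. By these bounds Elane was at least 3.20-fold lower in Mxcre-positive liver at 0 h, and at least 1.42-fold, 2.80-fold and 5.44-fold higher at 24, 36 and 48 h.

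Prtn3, which encodes proteinase 3, differed from the other azurophil genes in Mxcre-negative liver. There it started at -0.05, was down at -1.53 by 24 h and -2.39 by 36 h, and stood again at -0.05 by 48 h. Its Mxcre-positive levels were -1.39, -1.33, -1.03 and 1.21. It was the member that ended level with its start in Mxcre-negative liver, with 48 h within the scanner error of 0 h, and the Mxcre-positive array of 48 h stood above all others. Mxcre-positive liver had 2.53-fold less at 0 h, 1.15-fold more at 24 h (a difference of 0.20 ± 0.21 in log2, within the scanner error), and 2.56-fold and 2.40-fold more at the late times.

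Of the specific granule genes, Ngp and Camp showed the largest steps of any member between 24 and 36 h in Mxcre-positive liver, both from an array of 24 h that was not well above background. Ngp encodes neutrophilic granule protein, a relative of the cystatins. Its levels were -1.03, -2.44, -3.22 and -3.22 in Mxcre-negative liver and -4.31, -4.63, -0.30 and 0.04 in Mxcre-positive liver. The 2 late Mxcre-positive arrays were above all 6 others. Between genotypes Ngp was 9.75-fold lower in Mxcre-positive liver at 0 h and at least 4.45-fold lower at 24 h, then 7.58-fold and 9.54-fold higher at 36 and 48 h.

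Camp encodes the cathelicidin antimicrobial peptide. In Mxcre-negative liver it stood at -0.97, -3.14, -3.55 and -3.46, and in Mxcre-positive liver at -4.36, -5.45 (not well above background), -0.61 and -0.34. It ranked the 8 arrays exactly as Ngp did. Camp was lower in Mxcre-positive liver early (10.5-fold, then at least 2.74-fold) and higher late (7.67-fold, then 8.72-fold). In Mxcre-negative liver it was 4.50-fold lower at 24 h than at 0 h, and 5.99-fold lower at 36 h.

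Ltf encodes lactoferrin, an iron-binding protein of specific granules. The brighter of its 2 probes read -0.09, -1.94, -2.36 and -2.22 in Mxcre-negative liver and -2.91, -2.77, -0.29 and 0.49 in Mxcre-positive liver. The Mxcre-negative array of 0 h and the Mxcre-positive array of 36 h were within the scanner error of each other, below the Mxcre-positive array of 48 h alone. By this probe Ltf was 7.07-fold and 1.79-fold lower in Mxcre-positive liver at the early times, and 4.21-fold and 6.56-fold higher at the late times. The second probe gave the same 4 directions, with 3.80-fold lower, 1.92-fold lower, 4.29-fold higher and 10.3-fold higher, so the probes differed most at 0 and 48 h.

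S100a8 and S100a9 encode the subunits of calprotectin, a calcium- and zinc-binding protein that mature neutrophils and monocytes hold in the cytosol. S100a8 stood at 3.29, 3.24, 2.16 and 1.98 in Mxcre-negative liver and at 0.06, 2.24, 3.47 and 3.79 in Mxcre-positive liver. S100a9 stood at 5.63, 5.32, 4.55 and 4.20 in Mxcre-negative liver and at 2.64, 4.41, 5.64 and 5.98 in Mxcre-positive liver. In both genes the Mxcre-positive array of 0 h stood below all others, and the level was already higher at 24 h, 4.53-fold for S100a8 and 3.42-fold for S100a9. Between genotypes, S100a8 was 9.41-fold and 2.00-fold lower in Mxcre-positive liver early, then 2.49-fold and 3.52-fold higher. For S100a9 the same 4 values were 7.94-fold and 1.88-fold lower, then 2.13-fold and 3.43-fold higher. The genes are neighbours on chromosome 3, and their levels correlated at r = 0.996 over the 8 arrays.

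Retnlg encodes resistin-like gamma, a small secreted protein of granulocytes. Its levels were 0.53, 0.87, 0.31 and -0.36 in Mxcre-negative liver and -2.08, -0.05, 0.07 and 0.17 in Mxcre-positive liver. The Mxcre-positive array of 0 h lay below all others, and 3 of the 7 neighbouring steps were within the scanner error, those from the Mxcre-negative array of 36 h down through the later Mxcre-positive ones. Between genotypes Retnlg was 6.11-fold, 1.89-fold and 1.18-fold lower in Mxcre-positive liver over the first 3 times and 1.45-fold higher at 48 h, and so was not higher at 36 h as the other 9 genes were.

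**Figure D2:**
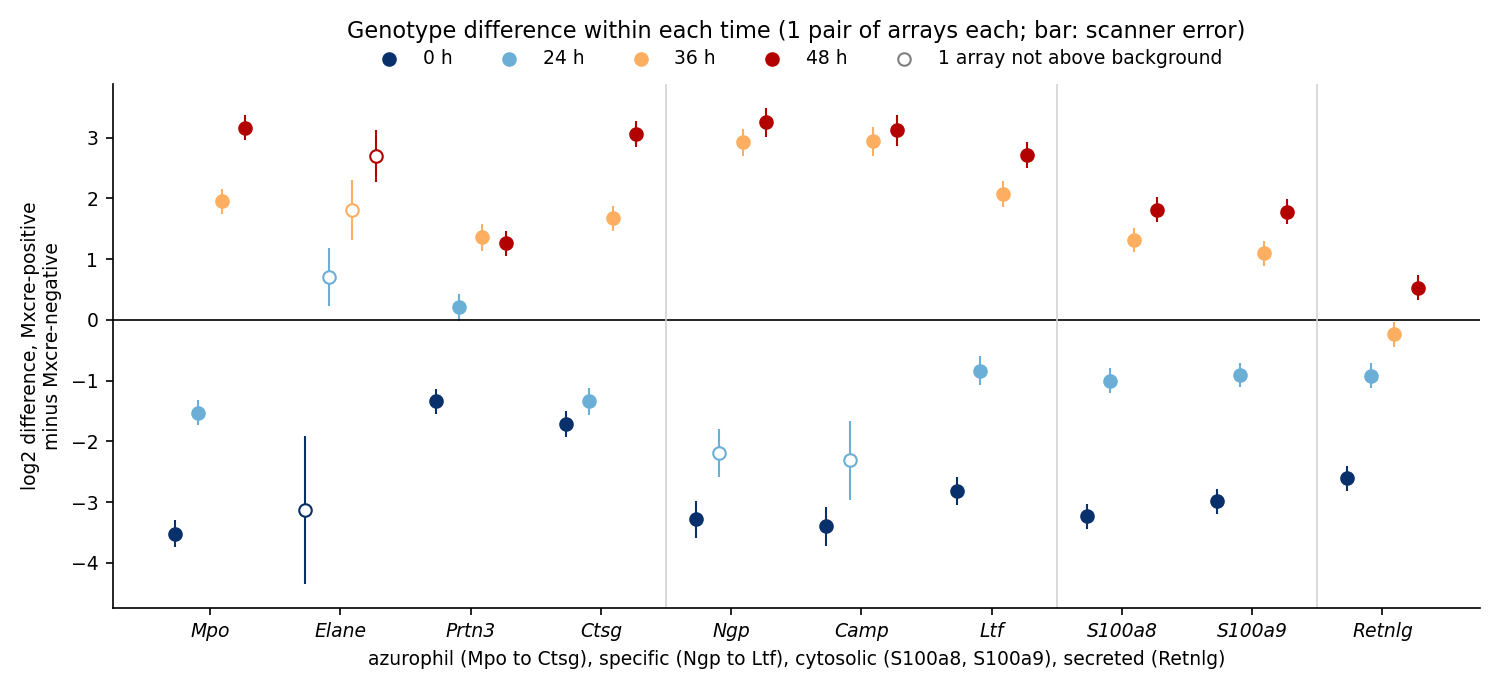
Difference between the genotypes within each time for each granule gene (y axis, log2, Mxcre-positive minus Mxcre-negative), with 1 pair of arrays per point, scanner error as bars, and open circles where 1 of the 2 arrays was not above background. The points of 0 h all lie below 0 and those of 48 h all above it, and Prtn3 and Retnlg have the smallest differences at 48 h among genes above background on both arrays.

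The pairs within a time have no test and are given by size, at 2-fold or more with both arrays above background. At 0 h, 9 of the 9 members that could be judged were lower by 2-fold or more in Mxcre-positive liver, where 2.57% of all genes were lower and 1.18% higher. At 24 h, 3 of 7 were lower (Mpo, Ctsg and S100a8) and 0 higher, against 1.19% and 0.793% of all genes. S100a8 lay at the limit with 2.00-fold, and Retnlg and S100a9 just outside it with 1.89-fold and 1.88-fold. At 36 h, 8 of 9 were higher and 0 lower, against 2.24% higher and 2.32% lower among all genes, and at 48 h again 8 of 9 were higher and 0 lower, against 2.5% and 3.16%. Retnlg was the exception at both late times. The medians of the 10 members were -3.06, -0.96, 1.74 and 2.71 at the 4 times, or -2.90, -0.96, 1.58 and 2.58 with dim pairs at their bounds, where the median of all genes stayed between -0.03 and 0.01.

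By role, the 3 specific granule genes had the largest median late differences (2.92 at 36 h and 3.12 at 48 h). The 4 azurophil genes followed (1.74 and 2.88), then S100a8 and S100a9 (1.21 and 1.80). At 0 h the medians of these groups were -3.28, -2.42 and -3.11. Background correction by normexp with an offset of 50 shrank the members' differences, to medians of -0.93, 0.87 and 1.27 at 0, 36 and 48 h. No sign changed there, with median centring or in the authors' deposited matrix (0 of 40 differences in each). The order by role did not hold with normexp. At 36 h S100a8 and S100a9 then stood at 1.15 and 1.02, and Ngp, Camp and Ltf at 1.03, 0.91 and 0.84. At 48 h the same genes stood at 1.69 and 1.82, and at 1.28, 1.07 and 1.27.

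A difference below 0 at both 0 and 24 h and above 0 at both 36 and 48 h was seen in 7 of the 10 members, Mpo, Ctsg, Ngp, Camp, Ltf, S100a8 and S100a9, and in 7.75% of all 14142 genes tested. The opposite pattern was seen in 1205 genes and 0 members. Elane and Prtn3 missed the pattern by being higher at 24 h, and Retnlg by being lower at 36 h.

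The difference at 36 and 48 h minus that at 0 and 24 h was fitted with limma over all genes, with the 2 times of a stage standing for replicates of each other (2 residual degrees of freedom). The contrast was chosen with the members' pattern known and is therefore no independent support for it. Camp had the largest value of the members at 5.89 ± 0.43 (log2, SE), from a mean of -2.86 early to 3.03 late, and Ngp came next at 5.83 ± 0.44 (limma adjusted p = 0.392 for both). Mpo stood at 5.09 ± 0.86, Ltf at 4.22 ± 0.77, Ctsg at 3.90 ± 0.55, S100a8 at 3.68 ± 0.85, Elane at 3.47 ± 1.45 and S100a9 at 3.39 ± 0.81. Retnlg at 1.91 ± 0.69 and Prtn3 at 1.88 ± 0.58 were the smallest. By limma 0 of 10 members were called, and 0% of all 14142 genes (members' adjusted p from 0.392 to 0.611). At an unadjusted p under 0.05 there were 8 members, all but Elane and Retnlg, and 8.46% of all genes. The median of the members was 3.79, against -0.03 over all genes, and it was 1.70 with normexp, where Elane was at 0.38. With the mean of the Y-linked genes as a covariate it was -3.51, and 8 of 10 members changed sign, all but Ngp and Camp. Y-linked signal differed within pairs almost only at 36 and 48 h, so the covariate and the late difference cannot be told apart.

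**Figure D3:**
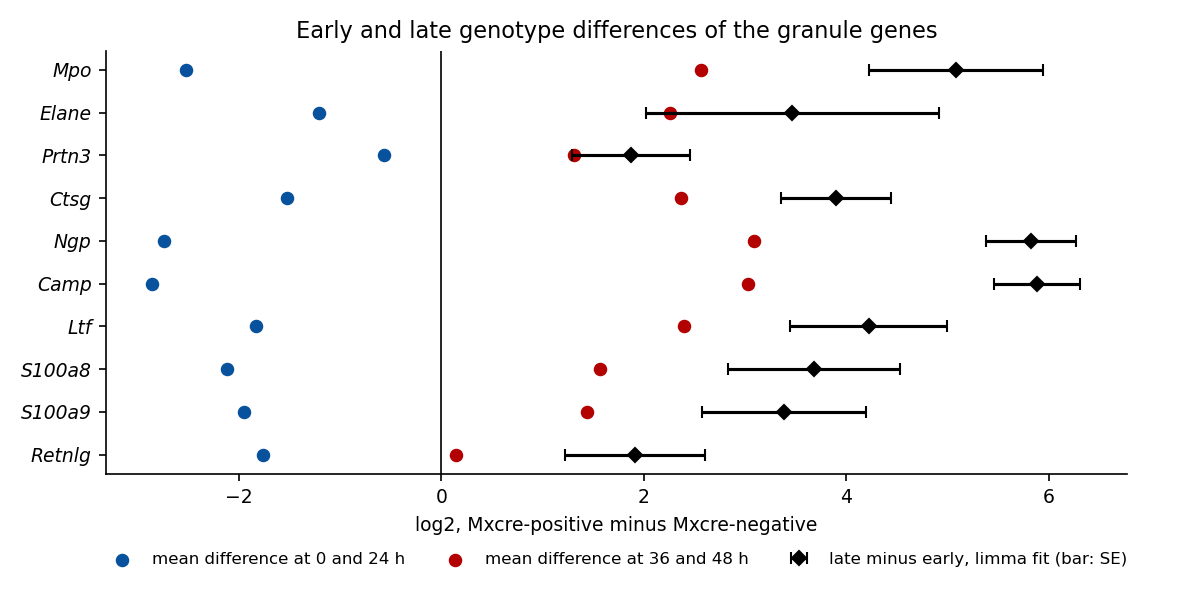
Mean genotype difference of each granule gene at 0 and 24 h (blue), at 36 and 48 h (red), and the late minus early value of the limma fit with its SE (black diamonds), all in log2, Mxcre-positive minus Mxcre-negative. The early means are below 0 and the late means above 0 in all 10 genes, and the late mean of Retnlg, 0.15, is the closest to 0.

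Averaged over the 4 times the early and late differences offset each other. The fitted genotype difference had a median of 0.13 over the members, from -0.81 ± 0.53 for Retnlg to 0.52 ± 1.01 for Elane. By limma 0 of 10 members were called, as were 0% of all genes, and at an unadjusted p under 0.05 there were 0 members and 6.58% of all genes. The median was -1.89 within slide 1 (0 and 24 h) and 2.31 within slide 2 (36 and 48 h). It turned negative without the pair of 36 h (-0.67) or of 48 h (-0.89), and was -2.02 with the Y-linked covariate.

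The comparison of each time with 0 h asks which genes changed after hepatectomy in both genotypes alike. By limma 0 of 10 members were called at 24 h (9.69% of all genes called), at 36 h (16.5%) or at 48 h (17.7%), and 0 had an unadjusted p under 0.05 at any of the 3 times, where 30.7%, 37.8% and 36.8% of all genes had one. The medians were 0.24, 0.86 and 1.01. They joined opposite courses, since the median change from 0 h was -0.84, -1.56 and -1.45 at 24, 36 and 48 h in Mxcre-negative liver and 0.83, 3.08 and 3.57 in Mxcre-positive liver. All 10 members were lower at 36 h than at 0 h in Mxcre-negative liver and all 10 were higher in Mxcre-positive liver. Without the Mxcre-positive array of 0 h the fitted medians were -1.75, -1.18 and -0.77. They were -0.69 without the Mxcre-negative array of 24 h, -0.09 without the Mxcre-positive array of 36 h and -0.32 without the Mxcre-positive array of 48 h for the times of those arrays. With the Y-linked covariate 4 members were called up at 36 h (Mpo, Ctsg, Ngp and Camp), where 7.30% of all genes were called in either direction, and 5 at 48 h (these and Ltf), where 8.45% were. The arrays of 0 h, the baseline here, had no Y-linked gene above background, unlike both arrays of 24 h and the late Mxcre-negative ones. Y-linked signal and the change from 0 h thus cannot be fully told apart.

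Over the 8 arrays the members' levels correlated with each other at a median r of 0.83 over 45 pairs, from 0.08 for Prtn3 with Retnlg to 0.996 for S100a8 with S100a9. These values describe 8 arrays that share the genotype and time design. The 3 pairs of specific granule genes ran from 0.97 to 0.99, and the 6 pairs of azurophil genes from 0.55 to 0.95, with the lower ones involving Prtn3. Without Prtn3 and Retnlg the 28 remaining pairs ran from 0.70 upward, and 23 of them were over 0.8.

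Other genes of neutrophils, from a list of 31 of which 28 were measured and 25 tested, differed most at 0 h. Their median differences were -0.95, -0.19, 0.18 and 0.31 in the order of the times, and at 0 h all 25 were lower in Mxcre-positive liver. Over the 18 pairs of 0 h with both arrays above background the median was -0.68. Of the 25, 11 had the signs of the granule pattern, and 22 had a late minus early value above 0 (median 0.93). Among pairs with both arrays above background, 5 of 24 were 2-fold or more higher at 36 h and 3 of 23 at 48 h, and 0 were 2-fold lower at either time. The 4 genes of the list with the largest late minus early values were the cystatins Stfa1 (3.66 ± 1.50) and Stfa2 (2.89 ± 1.19), the chitinase-like gene Chil3 (3.22 ± 0.46) and the collagenase Mmp8 (2.67 ± 1.17). Except for Chil3 (-2.61, -1.44, 1.32 and 1.07 at the 4 times) these rested mostly on 0 h, as Mmp8 shows with -3.80, -0.76, -0.08 and 0.86. The Mxcre-positive array of 0 h was not above background for Mmp8 (-6.65), Stfa1 (-6.74) or Stfa2 (-6.69). In the limma fits over time 3 of the 25 rose at 24 h (Lcn2, Lrg1 and Il1r2), 1 at 36 h (Il1r2), and 1 fell at 48 h (Stfa3). Lcn2, by 4.0 ± 0.80 (limma adjusted p = 0.048), is a specific granule gene that hepatocytes also make in the acute phase response. Lrg1 stood at 7.87 to 9.44 over the 8 arrays, and the cell type behind its signal was not tested.

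Of 12 measured genes of granulocyte precursors, 7 were above background on all 8 arrays and 9 were tested, with 4 of the 9 showing the granule pattern. Their medians were -0.43, -0.10, 0.71 and 0.43. Ms4a3, a marker of granulocyte and monocyte progenitors, stood at -3.09, -3.22, -4.12 and -3.89 in Mxcre-negative and -4.97, -5.11, -2.29 and -1.16 in Mxcre-positive liver, where the arrays of 0 and 24 h were not above background. It followed the course of Mpo, with a late minus early value of 4.16 ± 0.36 (limma adjusted p = 0.417). Next came Fcnb at 1.84 ± 0.95, above background on 3 of the 8 arrays, Igsf6 at 1.37 ± 0.31 and Serpinb1a at 1.32 ± 0.27. Over time, Cebpa, Serpinb1a and Myb fell and Hdc rose in at least 1 comparison (1 up and 2 down at 24 h, 1 up and 3 down at 36 h, 0 up and 2 down at 48 h). Cebpa stood at 2.26 to 4.05 over the 8 arrays, far above Ms4a3, and the cell type behind its signal was not tested. The transcription factor gene Gfi1 was not above background on any array. The 6 genes of the phagocyte NADPH oxidase, which supplies the hydrogen peroxide that myeloperoxidase uses, had medians of -0.80, -0.24, 0.55 and 0.12, with Ncf4 at 1.36 ± 0.43 and Rac2 at 1.04 ± 0.33 late minus early, 4 of 6 with the granule pattern, and 0 of 6 passed in any fit.

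Genes that recruit neutrophils or release them from marrow had smaller median differences between genotypes than the granule genes. Of 17 measured, 9 were not above background on any array (among them Cxcl2, Cxcl5, Csf3 and Tnf), and the 8 tested had medians of -0.52, 0.04, 0.39 and -0.14. Cxcl1, a ligand of Cxcr2, rose with hepatectomy in both genotypes, by 2.32 ± 0.47 at 24 h and 2.85 ± 0.47 at 36 h (limma adjusted p = 0.049 and 0.029). Cxcl12, the factor that holds neutrophils in the marrow, fell by 0.88 ± 0.11, by 0.51 ± 0.11 and by 0.94 ± 0.11 at the 3 times (limma adjusted p = 0.024, 0.047 and 0.015). Its genotype difference was 0.16 or less at each time. That of Cxcl1 was -1.30, 0.00, 0.51 and -0.90. Cxcr4, above background on 5 of the 8 arrays, had the largest late minus early value of the list, 1.89 ± 1.12, with differences of -2.88, 0.13, 0.70 and 0.33. Cxcl1 and Cxcr4 were the 2 of 8 genes lower by 2-fold or more at 0 h, with both arrays above background.

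**Figure D4:**
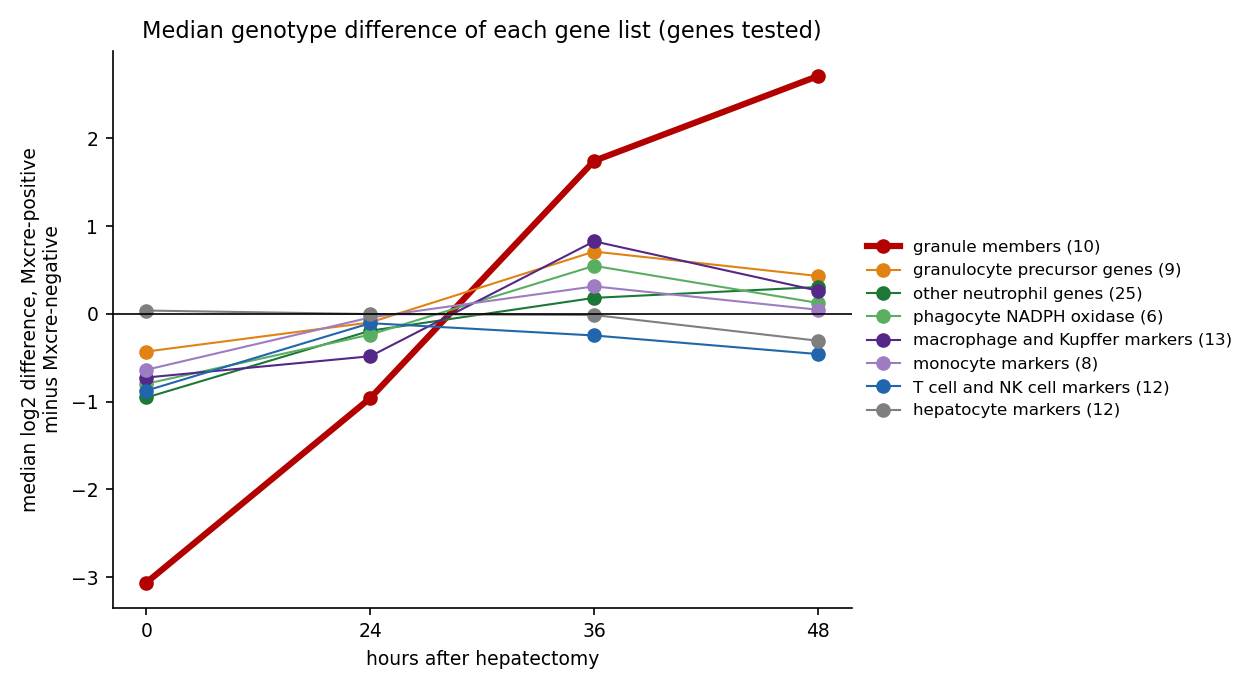
Median genotype difference of 8 gene lists at each time (y axis, log2, Mxcre-positive minus Mxcre-negative), over the genes tested in each list, whose number is in the legend. The granule genes run from -3.06 to 2.71, and the other 7 lists stay between -0.95 and 0.83.

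Markers of other cell types moved with the granule genes in part. The 13 macrophage and Kupffer cell markers, all above background on all 8 arrays, had medians of -0.73, -0.48, 0.83 and 0.26, and 9 of 13 had the signs of the granule pattern. Their summed level, in multiples of the 75th percentile signal, was 75.5 against 42.3 (Mxcre-negative against Mxcre-positive) at 0 h. It was 61.1 against 36.3 after 24 h, 34.6 against 57.0 after 36 h, and 55.2 against 60.0 after 48 h. Lyz2 had the largest late minus early value of this list, 1.59 ± 1.46, but not the pattern, with differences of -2.86, 1.13, 0.79 and 0.66. C1qa, a complement subunit, had a late minus early value of 1.57 ± 0.34 and Vsig4, a complement receptor of Kupffer cells, 1.47 ± 0.16. The summed level of the 7 granule genes above background throughout was 65.1 and 8.37, 53.7 and 28.2, 30.5 and 67.3, and 25.1 and 89.4 in the same order. S100a8 and S100a9, which monocytes also hold, made up most of that sum, and the 5 others alone came to 5.79 and 1.08, 4.23 and 2.16, 2.67 and 6.20, and 2.84 and 12.6. The part of the macrophage markers in the granule pattern was not tested. The 8 monocyte markers tested had medians of -0.64, -0.04, 0.31 and 0.05, and 2 of 8 had the pattern.

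Other lineages had late medians between -0.55 and 0.27. T cell and NK cell markers (12 tested) had medians of -0.87, -0.11, -0.25 and -0.46, B cell markers (6) -0.60, 0.28, -0.40 and -0.25, and erythroid markers (6) -0.46, -0.64, -0.47 and -0.55. Megakaryocyte and platelet markers (9) stood at -0.59, -0.15, -0.10 and 0.09, and progenitor markers (5) at 0.19, -0.16, -0.24 and 0.27. Of 14 eosinophil, basophil and mast cell genes 8 were not above background on any array, among them the defining genes Epx, Siglecf, Mcpt8 and Cpa3, and the 6 tested had medians of -0.36, -0.26, 0.09 and -0.05. The granule pattern of signs was seen in 2 of the 9 platelet markers, 1 of the 12 T and NK cell markers, 1 of the 5 progenitor markers and 0 of the B cell, erythroid and eosinophil, basophil and mast cell genes. Pf4, the platelet factor 4 gene, was above background on all 8 arrays and had the pattern, with -0.89, -0.16, 2.14 and 1.49. Nkg7, a gene of cytotoxic cells, was also above background throughout and had it too, with -1.48, -0.16, 2.40 and 0.71. Other genes of these 2 lists went the other way late minus early, with Gp1ba at -2.45 ± 0.81 (above background on 3 arrays) and Cd8a at -2.08 ± 0.80. Late minus early values above 0 were seen in 6 of the 9 platelet markers and 8 of the 12 T and NK cell markers. Hepatocyte markers had medians of 0.04, 0.00, -0.01 and -0.31. Xist, which coats and silences an X chromosome in female cells, differed by 0.03, 0.73, 0.81 and 2.78. It was above background on all 8 arrays, also on those with Y-linked signal. Its levels were 5.46, 3.48, 4.37 and 2.32 in Mxcre-negative liver and 5.49, 4.20, 5.18 and 5.10 in Mxcre-positive liver.

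Of 4370 other genes above background on all arrays with a range of at least 1 (log2), Grb10, an adaptor of receptor tyrosine kinase signalling, had the pattern most like the members' mean (r = 0.96 over 8 arrays, and 0.97 without the 2 farthest arrays). Its genotype difference was -1.23, -0.37, 1.12 and 1.47. The next 9 were Me2, Ifitm6, 2610306M01Rik, Cd300e, Ptpre, Pparg, Lgals3, Apobr and Slc11a1, at r of 0.94 down to 0.88. Of these, Ifitm6 had differences of -2.33, -0.96, 1.66 and 1.52, and Cd300e, a receptor of myeloid cells, -1.13, -0.24, 1.09 and 1.40. Without the 2 farthest arrays the r of Lgals3 and of Pparg was 0.65.

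Genes beside a member on the chromosome mostly did not follow it. Mpo lies between Tspoap1 (r = -0.43 with Mpo over the 8 arrays) and Lpo (r = -0.58), a peroxidase gene of the same family, whose differences were -0.16, 0.03, -0.32 and -0.47. The neighbours of Ngp and Camp had r from -0.49 to -0.09. Cfd, the complement factor D gene beside Elane, gave a signal above background on 5 arrays, Elane on 4, and their r was -0.22. The genotype differences of Cfd were -0.76, 1.63, -3.65 and -6.73. The adjacent members Elane and Prtn3 correlated at r = 0.70. Ccrl2, a chemokine-binding receptor gene beside Ltf, had r = 0.72 and differences of -0.63, -0.37, 1.08 and 0.43. Retnla, the paralogue beside Retnlg, had r = 0.65 and was above background on 5 of the 8 arrays. Its differences of -1.81, -2.69, 0.49 and 1.19 had the signs of the granule pattern, which Retnlg lacked.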

How the data were processed

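Mouse liver RNA of 8 samples was labelled with Cy3 and hybridised to 8 1-colour Agilent arrays. The scanner files hold spot intensity, corrected for background by Feature Extraction 10.7.3.1 per the file headers (10.7 per the submitters' processing notes). The deposited matrix holds log2 values; all 8 columns share a median of 5.51, each correlates best with its own array (r of at least 0.999), and its scale was inferred from that. Here each array's signal was divided by its 75th percentile over all non-control spots before log2 was taken. Spots with outlier marks were then left out and the others averaged for each probe (118 of 41174 probes left out, 26839 named). The probe with the highest mean stood for a gene, and genes well above background on at least 2 arrays were tested (14142).

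limma 3.58.1 in R 4.3.3 fitted time and genotype (3 residual degrees of freedom), or also genotype by late stage (2), with Benjamini-Hochberg adjustment over all genes tested and calls at 0.05. No group had replicates, so p reflects how steady a difference was over times or genotypes. On simulated data (200 changed of 14142 genes) 4-fold changes in the late minus early difference were recovered at 0.0% and 16-fold ones at 74.0%. The simulated spread was that left by the fit of time and genotype alone, which also holds a gene's own late minus early difference. The planned normexp alternative used the median in place of the mean spot signal, a column not used here. Members, lists and contrasts were chosen with earlier results of these data known. Named genes were all members, up to 4 per list with the largest fitted difference (called ones first), the 10 most like the members' mean and the chromosomal neighbours. The reference is GRCm38.p6 and the array annotation mm9. Gene names, neighbours and the promoter sequences with their coordinates were taken from the reference.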

Additional observations from a re-analysis of the deposited data

Results flagged for a closer look

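In 7 members the genotype difference had the opposite sign at 36 and 48 h from that at 0 and 24 h in every pair of arrays, which singled out their late minus early values: Camp at 5.89, Ngp at 5.83, Mpo at 5.09, Ltf at 4.22, Ctsg at 3.90, S100a8 at 3.68 and S100a9 at 3.39 (log2). The change of sign itself was not tested. The limma fit tests the size of late minus early, and none of the 7 passed (0 of 10 members called, adjusted p from 0.392 to 0.611). On simulated data that fit recovered 0.0% of 4-fold changes and 74.0% of 16-fold ones. Stage, slide and, at 36 and 48 h, Y-linked signal moved together, and their parts cannot be told apart with 1 array per group.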

How the results depend on the processing

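Each group has 1 array, so there were no replicate numbers by which to pair animals. The genotypes were paired by time only, through the time term. The number of members called was 0 in all 5 fits under every setting except the Y-linked covariate, with 4 at 36 h and 5 at 48 h. That covariate gave medians of 4.07 for 24 h against 0 h, -2.02 for genotype and -3.51 for late minus early. It gave late minus early values of -4.16 for Mpo, -9.66 for Elane, -1.92 for Prtn3, -1.60 for Ctsg, -3.89 for S100a8, -4.38 for S100a9, -3.14 for Ltf and -5.09 for Retnlg. The covariate nearly coincides with the late pairs, and it also differs between 0 and 24 h in both genotypes. Normexp gave medians of 1.70 for late minus early and -0.93, 0.87 and 1.27 for the genotype difference at 0, 36 and 48 h, its offset shrinking low signals. With normexp S100a9 (3.28) and not Camp (1.48) had the largest late minus early value of the members. Leaving out single arrays moved the median for 24 h against 0 h from -1.75 to 1.92, for 36 h from -1.18 to 2.85 and for 48 h from -0.77 to 2.93. Leaving out pairs moved the genotype median from -0.89 to 1.17 and the late minus early median from 2.90 to 5.01, always positive. Within slide 1 the genotype median was -1.89. Over all genes, 580, 990 and 1573 were called at the 3 times with no filter on dim genes, against 1370, 2329 and 2507, and 0 to 631 without single arrays. Signal near background limits Elane on 4 arrays and Ngp and Camp on 1.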
